A study of Mus musculus with 14 samples.

Results

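The 9 genes followed here encode surface molecules that restrain or sustain T cell activation. They are the inhibitory receptors Ctla4, Pdcd1, Tigit, Lag3, Havcr2 and Btla, the costimulatory receptor Icos, and the immunoglobulin-family proteins Cd200 and Cd83. All 9 were chosen by name, and all 9 had a row among the 14449 genes of the deposited log2 CPM table (log2 of reads scaled by an effective size of each library). Their Entrez identifiers are 12477 for Ctla4, 18566 for Pdcd1, 100043314 for Tigit, 16768 for Lag3, 171285 for Havcr2, 208154 for Btla, 54167 for Icos, 17470 for Cd200 and 12522 for Cd83. The libraries were made from regulatory T cells, sorted from lymph node as CD4+Foxp3eGFP+ by a green reporter of Foxp3. The mice had the BALB/c background and were 35 days old. Il1rn-/- mice, which lack the IL-1 receptor antagonist, gave 3 libraries of set a and 4 of set b, and wild-type mice gave 3 of set a and 4 of set b. Both genotypes shared the strain, the age and the reporter, and what the letters stand for is not stated. Whether each library came from its own animal is not stated either, so p-values measure only the spread between libraries. The table has no row for Il1rn, so the genotype labels were not checked against it.

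Checkpoint receptors set how strongly a T cell answers its antigen. Regulatory T cells use several of them as tools: CTLA-4 strips the costimulatory ligands CD80 and CD86 from antigen-presenting cells, and TIGIT engages the poliovirus receptor CD155. PD-1, the product of Pdcd1, and BTLA recruit phosphatases to the receptor complex. LAG-3 binds MHC class II, TIM-3, the product of Havcr2, binds galectin-9 among other ligands, and ICOS signals through PI3 kinase to maintain activated regulatory T cells. CD200 is itself a ligand, which quiets myeloid cells through CD200R1, and CD83 stabilises MHC class II and CD86 on the cell surface and is present on activated lymphocytes and mature dendritic cells.

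Several of these genes are neighbours in the mouse genome. Cd28, Ctla4 and Icos follow each other on chromosome 1, Btla and Cd200 are adjacent on chromosome 16, and Lag3 lies beside Cd4 on chromosome 6. Pdcd1 is also on chromosome 1 and Tigit on chromosome 16, while Havcr2 is on chromosome 11 and Cd83 on chromosome 13. No exon of the 9 genes overlaps an exon of another gene on either strand in the GENCODE M21 annotation. Promoter windows are shown for Ctla4, the gene of the highest mean level per length, and for Tigit, Pdcd1 and Cd200 as further examples. They come from RefSeq on GRCm38.p6, the mouse reference rather than a BALB/c sequence, and run over the 250 bases before the annotated start, 5′ to 3′ on the gene's strand. Capitals mark GGAAA or its reverse complement TTTCC, the core recognised by NFAT, a factor activated by antigen receptor signals.
Ctla4, chr1:60908775-60909024, plus strand: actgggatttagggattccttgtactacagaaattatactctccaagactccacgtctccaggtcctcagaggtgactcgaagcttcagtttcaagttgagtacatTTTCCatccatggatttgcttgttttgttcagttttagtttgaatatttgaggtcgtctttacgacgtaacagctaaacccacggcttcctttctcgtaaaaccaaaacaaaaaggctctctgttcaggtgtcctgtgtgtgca
Tigit, chr16:43664185-43664434, minus strand: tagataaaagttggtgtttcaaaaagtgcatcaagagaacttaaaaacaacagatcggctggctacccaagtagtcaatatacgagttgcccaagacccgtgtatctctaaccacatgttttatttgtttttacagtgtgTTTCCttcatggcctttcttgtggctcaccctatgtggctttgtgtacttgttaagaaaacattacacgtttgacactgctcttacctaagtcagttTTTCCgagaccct
Pdcd1, chr1:94052554-94052803, minus strand: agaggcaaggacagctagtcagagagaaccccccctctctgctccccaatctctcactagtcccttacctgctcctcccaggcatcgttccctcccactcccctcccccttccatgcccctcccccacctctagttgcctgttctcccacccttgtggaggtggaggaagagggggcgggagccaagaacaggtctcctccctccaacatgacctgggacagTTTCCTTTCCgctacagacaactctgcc
Cd200, chr16:45409054-45409303, minus strand: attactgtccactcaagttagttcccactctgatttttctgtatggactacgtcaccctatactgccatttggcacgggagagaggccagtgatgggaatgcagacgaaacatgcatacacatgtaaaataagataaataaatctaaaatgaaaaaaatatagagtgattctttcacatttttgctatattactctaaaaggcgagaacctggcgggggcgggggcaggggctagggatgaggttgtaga
The core was found once in the Ctla4 window, at 2 positions each in those of Tigit and Pdcd1, and at 0 in that of Cd200. It was present on either strand in 55.6% of 32851 windows of the same length. The letters searched for AP-1 (TGANTCA) and forkhead factors (TGTTTAC), and the NF-κB motif, on both strands, were at 0 in all 4 windows and are held by 6.75%, 3.17% and 0.356% of windows. Each NF-κB match contains the NFAT core. These matches describe letters and not binding.

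The libraries held 952021 to 3756559 reads in the genes of the table, recovered as whole reads from the deposited values. They fell into 2 classes by the share of Rn45s, the ribosomal RNA precursor. In 6 libraries, all 4 wild-type libraries of set b and Il1rn-/- 1 and 2 of set b, the share was 59.6% to 65.8%, and 384360 to 905988 reads lay outside it. In the other 8, which hold 5 Il1rn-/- and 3 wild-type libraries, the share was 20.3% to 39.95%, with 1654868 to 2805693 reads outside it. Y-linked transcripts were present in 4 of these 8, Il1rn-/- 3 and 4 of set b and wild-type 1 and 2 of set a. Differences between genotypes over all 14 libraries are therefore given also with the class in the model, in place of the letter.

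The libraries carried the transcripts that define the sort. Foxp3, the lineage factor, was at 8.59 ± 0.24 log2 CPM in Il1rn-/- and 8.56 ± 0.32 in wild-type libraries (SD, n = 7 each), and Cd4 was at 7.95 to 8.55 in all 14. Transcripts of other cells were low: Cd79a of B cells had 7 to 32 reads and Csf1r of macrophages 0 to 6, with 0 reads in 5 libraries, and Itgax of dendritic cells has no row. The summed level of 10 B cell markers was 21.2 to 77.8 CPM in Il1rn-/- and 30.7 to 84.3 CPM in wild-type libraries. Mature dendritic cells make much Cd83, and the 5 of their markers in the table summed to 1.68 to 4.94 CPM in Il1rn-/- and 1.16 to 8.78 CPM in wild-type libraries. Follicular helper T cells carry high Pdcd1, Btla and Icos. The 6 markers of them in the table summed to 50.3 to 130.8 CPM in Il1rn-/- and 68.2 to 115.0 CPM in wild-type libraries. A change in the share of cells that carry a receptor and a change in its RNA per cell cannot be told apart in such bulk libraries.

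Per length of transcript, Ctla4 had the highest mean of the 9 genes. It averaged 7.09 ± 0.68 log2 CPM per kilobase over the 14 libraries (mean ± SD), which was above the next gene, Tigit, in 12 of 14. In the libraries of high Rn45s share Ctla4 was at 6.47 ± 0.14 and Tigit at 6.44 ± 0.20, with Ctla4 the higher in 4 of 6. In those of low share Ctla4 was at 7.55 ± 0.52 and Tigit at 6.52 ± 0.51, with Ctla4 the higher in 8 of 8. Tigit at 6.48 ± 0.40 and Icos at 6.43 ± 0.57 had an order that turned with the class. Tigit was the higher in 6 of 6 libraries of high share and in 2 of 8 of low share. Cd83 followed at 5.71 ± 0.49, below Icos in 13 of 14 and above Pdcd1 in 14 of 14. The middle of the order was held by Pdcd1 at 4.88 ± 0.42, Lag3 at 4.08 ± 0.42, Btla at 3.60 ± 0.47 and Cd200 at 3.47 ± 0.43. Pdcd1 was above Lag3 in 12 and Lag3 above Btla in 10 of the libraries, while Btla was above Cd200 in 7. Havcr2 was last at 0.46 ± 1.75, below Cd200 in 14 of 14. Its 0 to 51 reads per library set the precision, against 152 to 1925 reads for Ctla4.

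**Figure D1:**
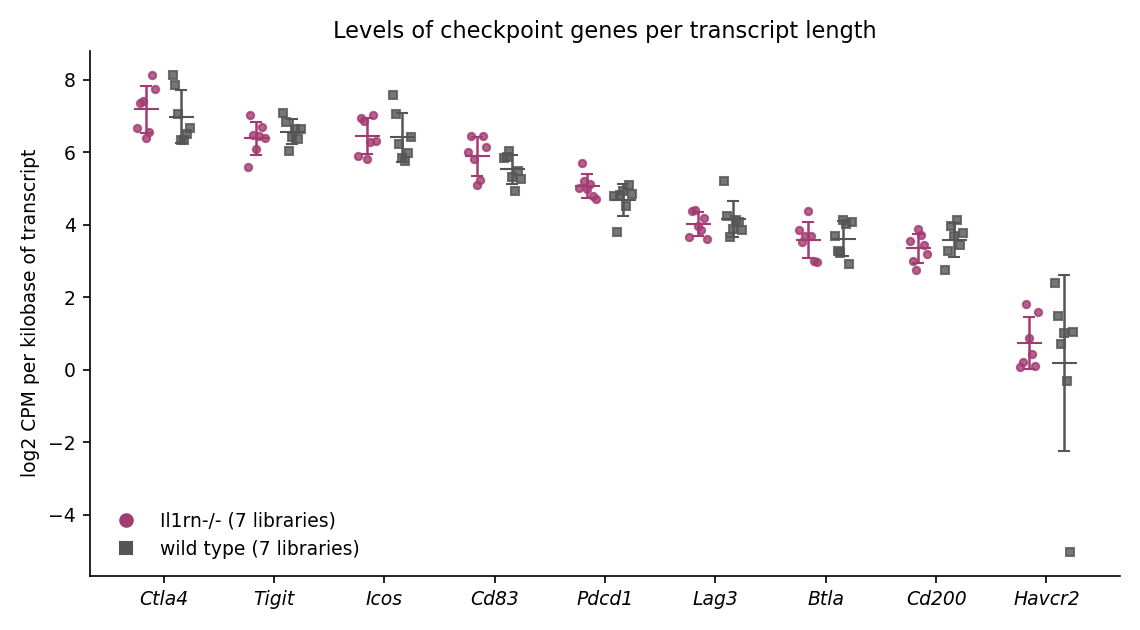
Level of each checkpoint gene in log2 CPM per kilobase of its longest coding transcript (vertical axis), ordered by the mean over 14 libraries. Points are libraries, Il1rn-/- left of wild type, horizontal bars are means and whiskers 1 SD. Ctla4 stood highest at 7.09 and Havcr2 lowest at 0.46, where the lowest point is a library with 0 reads.

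The first question was whether loss of the IL-1 receptor antagonist went with another RNA level of these genes in regulatory T cells. Protein on the cell surface was not measured in these libraries. None of the 9 passed the test between genotypes, in which 0% of 12329 genes passed by limma at an adjusted p under 0.05. No member had an unadjusted p under 0.05 by limma either, against 5.51% of all genes. By limma voom on the recovered reads 0 genes passed too, and Pdcd1 had an unadjusted p of 0.0411. In 5 members the difference was positive (higher in Il1rn-/-) and in 4 negative, with a median of 0.04 on the log2 scale, and the median over all genes was 0.04. No member separated all libraries of the genotypes, as 0.0324% of genes did.

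Among the inhibitory receptors, Pdcd1 had the largest difference relative to its error. Its lowest, median and highest log2 CPM were 5.67, 5.96 and 6.66 in Il1rn-/- libraries, against 4.74, 5.76 and 6.05 in wild-type libraries. The ranges overlapped, and 1 wild-type library lay far below the rest. The log2 difference was 0.39 ± 0.20 (estimate ± SE, as for all differences), with a 95% confidence interval of -0.02 to 0.80 and an adjusted p of 0.787. Without wild-type 2 of set a, the library at 4.74, it was 0.22 ± 0.16. An exact two-sided permutation test gave an unadjusted p of 0.0743 within letters and 0.0464 within library classes. With library class as a covariate the difference was 0.45 ± 0.19 at an unadjusted p of 0.0302 and an adjusted p of 1.00. In that model 2.46% of all genes had an unadjusted p under 0.05.

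Ctla4 spread widely within both genotypes. It was at 7.36, 8.32 and 9.10 log2 CPM (lowest, median and highest) in Il1rn-/- libraries, against 7.28, 7.63 and 9.07 in wild-type libraries. The ranges nearly coincided. The difference was 0.20 ± 0.29, with an interval of -0.40 to 0.81, and it was -0.11 ± 0.20 with library class as a covariate and -0.011 without Il1rn-/- 3 of set b.

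Tigit, Lag3 and Btla had differences smaller than their SE. Tigit averaged 6.27 ± 0.45 log2 CPM in Il1rn-/- and 6.45 ± 0.34 in wild-type libraries (SD, n = 7 each), a difference of -0.18 with an interval of -0.60 to 0.24. Lag3 averaged 5.01 ± 0.33 in Il1rn-/- and 5.15 ± 0.50 in wild-type libraries, a difference of -0.14 with an interval of -0.57 to 0.28 that was 0.13 without the libraries with Y-linked transcripts. With library class as a covariate the difference was -0.22 for Tigit and -0.22 for Lag3. Btla averaged 5.29 ± 0.50 in Il1rn-/- and 5.32 ± 0.48 in wild-type libraries, a difference of -0.03 with an interval of -0.52 to 0.47 that was 0.12 with library class as a covariate. For these genes a change beyond those bounds in either direction lies outside the interval, and smaller ones do not. Havcr2 was read 7 to 43 times in Il1rn-/- and 0 to 51 times in wild-type libraries, and its interval of -1.08 to 2.17 leaves the direction unresolved at this depth. Its difference was 0.54 by limma and -0.28 by limma voom, and -0.29 by limma without wild-type 3 of set b, the library at 0 reads. With library class as a covariate it was 0.16.

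The costimulatory receptor Icos differed by less than its error. It averaged 8.15 ± 0.50 log2 CPM in Il1rn-/- and 8.11 ± 0.68 in wild-type libraries (SD, n = 7 each), a difference of 0.04 with an interval of -0.47 to 0.55 that was -0.18 with library class as a covariate. Cd200 averaged 4.59 ± 0.40 in Il1rn-/- and 4.81 ± 0.47 in wild-type libraries, a difference of -0.22 with an interval of -0.64 to 0.20 that was -0.07 with the covariate.

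Cd83 was at 6.41, 7.31 and 7.76 log2 CPM (lowest, median and highest) in Il1rn-/- libraries, against 6.24, 6.79 and 7.34 in wild-type libraries. The ranges overlapped over most of their length. The difference was 0.35 ± 0.19 at an unadjusted p of 0.0881 and an adjusted p of 0.787. With library class as a covariate it was 0.12 ± 0.13, and in the 6 libraries with a high Rn45s share it was -0.07.

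**Figure D2:**
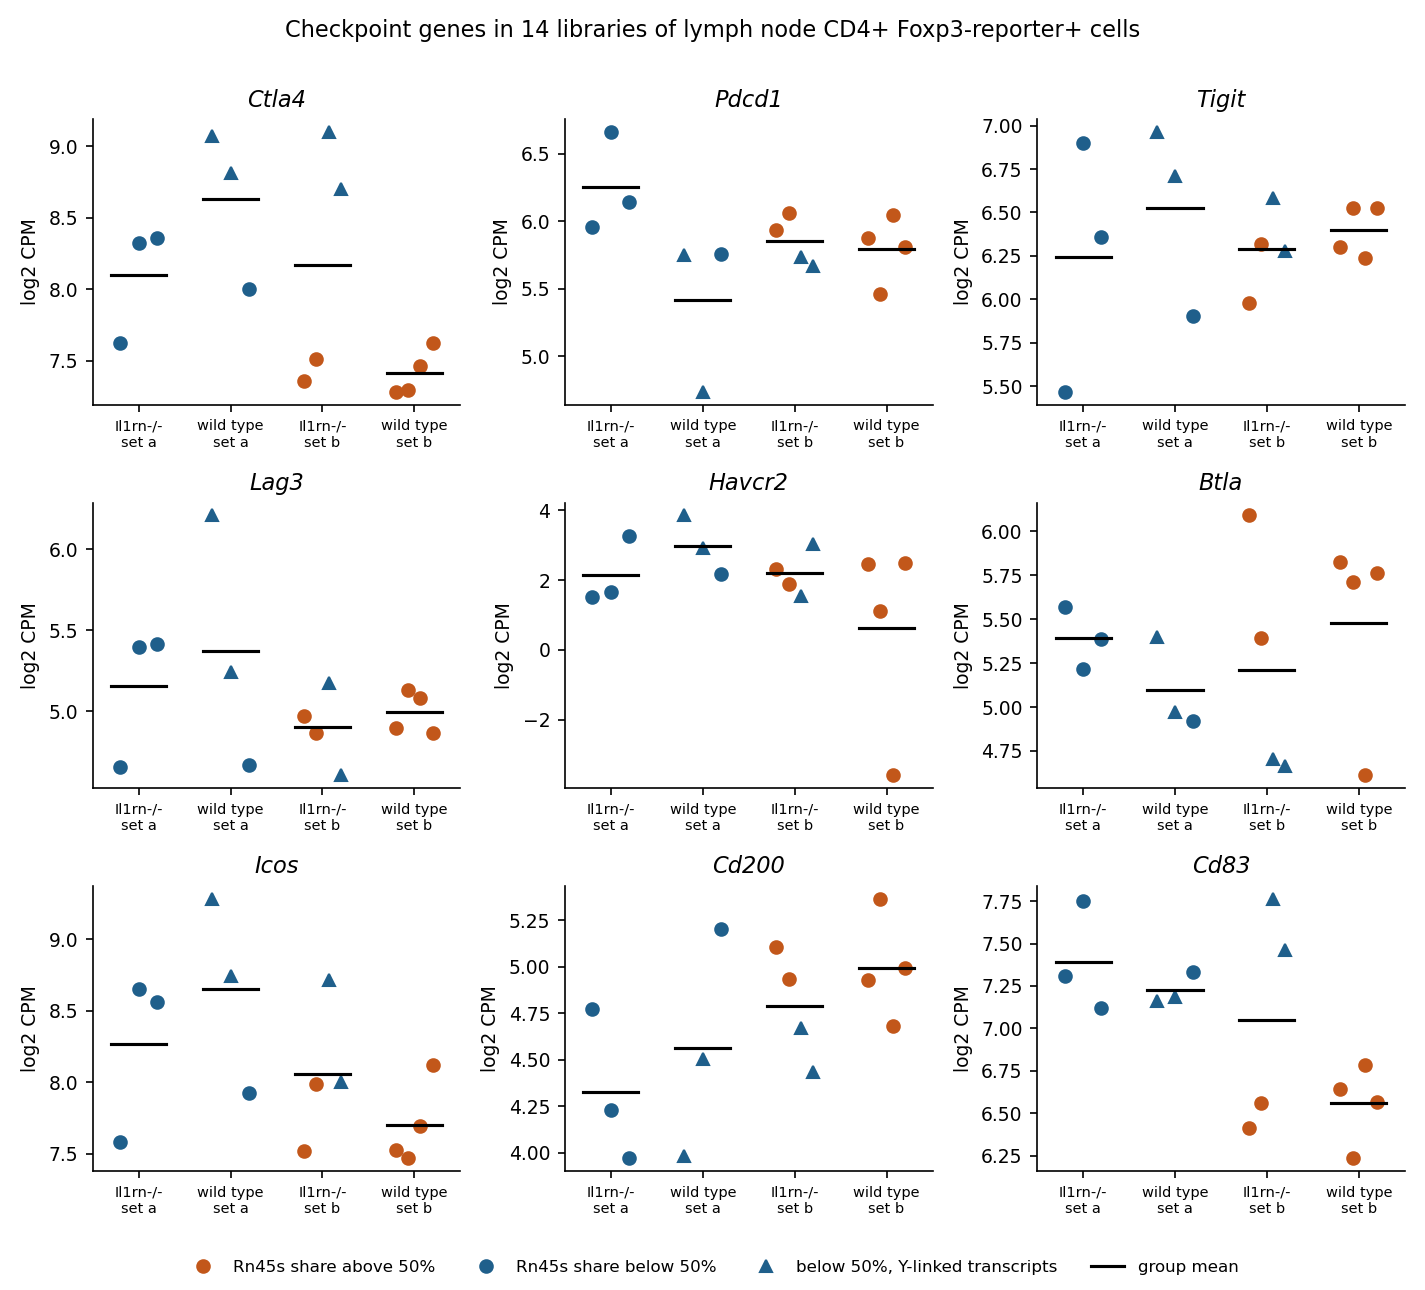
log2 CPM of each checkpoint gene (vertical axes, not starting at 0) in the 4 groups, 1 point per library, with Il1rn-/- left of wild type in each set and lines at group means. Colour gives the Rn45s class and triangles the libraries with Y-linked transcripts. The 6 libraries with a high Rn45s share lie between 6.24 and 6.79 for Cd83, below all others, and the triangles between 8.70 and 9.10 for Ctla4, above all others.

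The sets were then compared apart, with 3 libraries of each genotype in set a and 4 of each in set b. In neither set did a member pass, and 0% of all genes passed in set a, in set b and in the difference between them. Pdcd1 and Ctla4 had the smallest unadjusted p of the members in the difference between sets.

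In set a, Pdcd1 was at 5.96, 6.66 and 6.15 log2 CPM in Il1rn-/- libraries, against 5.75, 4.74 and 5.76 in wild-type libraries. Every Il1rn-/- library lay above every wild-type library, and in set a the genotypes failed to overlap for 7.97% of all genes. The difference was 0.84 ± 0.27 at an unadjusted p of 0.00601, with 1.97% of all genes under 0.05, and an adjusted p of 1.00. Without wild-type 2 it was 0.50 ± 0.25 at an unadjusted p of 0.0621. The exact permutation test gave p = 0.100, which is the smallest that 20 arrangements allow. Wild-type 1 and 2 of this set, at 5.75 and 4.74, are libraries with Y-linked transcripts, and wild-type 3 at 5.76 is not. In set b, Pdcd1 was at 5.94, 6.06, 5.74 and 5.67 in Il1rn-/- libraries, against 5.88, 5.46, 6.05 and 5.81 in wild-type libraries, and the groups overlapped, as they did for all 9 members in set b, where 4.28% of genes had none. Its difference there was 0.05 ± 0.23, and the contrast of set b minus that of set a was -0.79 ± 0.36 at an unadjusted p of 0.0413 and an adjusted p of 0.623, and -0.45 without wild-type 2 of set a. Under 0.05 in that contrast were 7.85% of all genes.

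Ctla4 went the opposite way between sets. In set a it was at 7.62, 8.32 and 8.36 log2 CPM in Il1rn-/- libraries, against 9.07, 8.81 and 8.0 in wild-type libraries, with overlap and a difference of -0.53 ± 0.38. In set b it was at 7.36, 7.51, 9.10 and 8.70 in Il1rn-/- libraries, against 7.28, 7.29, 7.46 and 7.63 in wild-type libraries. The high pair of set b are Il1rn-/- 3 and 4, the libraries of that set with a low Rn45s share and Y-linked transcripts. The set b difference was 0.75 ± 0.33 at an unadjusted p of 0.0365 and an adjusted p of 0.312, in a contrast where 15% of all genes were under 0.05. It was 0.44 without Il1rn-/- 3, and 0.02 when the set held only libraries with a high Rn45s share. The contrast of set b minus that of set a was 1.28 ± 0.51 at an adjusted p of 0.610, and in it genotype cannot be told apart from the Y-linked call, unequal between the genotypes of both sets, or from the class, unequal in set b.

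Icos followed the signs of Ctla4 in both sets. It was at 7.58, 8.65 and 8.56 log2 CPM in Il1rn-/- libraries of set a, against 9.29, 8.74 and 7.93 in wild-type libraries. In set b it was at 7.52, 7.99, 8.71 and 8.0 in Il1rn-/- libraries, against 7.53, 7.47, 7.69 and 8.12 in wild-type libraries. The groups overlapped in both sets, and the differences were -0.38 ± 0.35 in set a and 0.35 ± 0.31 in set b. Havcr2 in set b had a difference of 1.58 with an interval of -0.47 to 3.62, and of 0.18 without wild-type 3, the library at 0 reads. The other 5 members (Tigit, Lag3, Btla, Cd200 and Cd83) had differences of -0.28 to 0.49 in the sets.

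**Figure D3:**
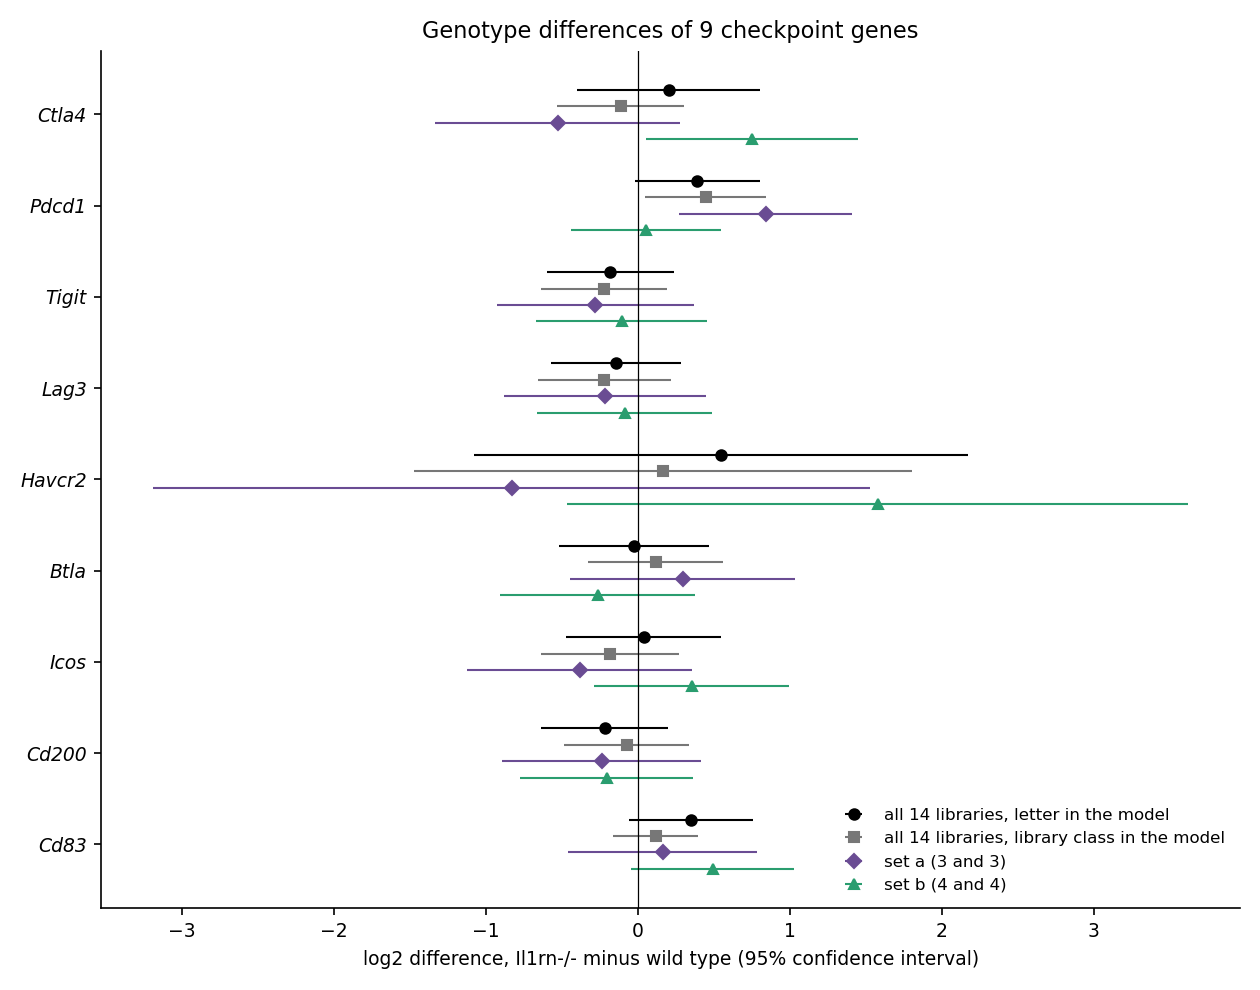
Log2 difference between Il1rn-/- and wild-type libraries (horizontal axis, positive when higher in Il1rn-/-) for each checkpoint gene, with 95% confidence intervals, in 4 fits that share libraries. Pdcd1 lies at 0.84 in set a against 0.05 in set b, and Ctla4 at -0.53 in set a against 0.75 in set b. The intervals of Havcr2 are the widest.

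The library classes were compared next. Of the 9 members, 3 passed between libraries with a high and with a low Rn45s share, with genotype in the model, and all 3 were lower in the high class. Over all genes 36.1% passed, 20% lower and 16.1% higher, and the share of members called is near that background. At an unadjusted p under 0.05 were 5 members and 45.5% of all genes. The median difference over all genes was -0.12, and that of the members -0.27.

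Cd83 separated the classes without overlap. It was at 6.24, 6.56 and 6.79 log2 CPM (lowest, median and highest) in the 6 libraries of the high class, against 7.12, 7.32 and 7.76 in the 8 of the low class. The classes failed to overlap for 14.9% of all genes. The difference was -0.82 ± 0.14 at an adjusted p of 9.36e-05.

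Ctla4 was at 7.28, 7.41 and 7.63 log2 CPM in the high class, against 7.62, 8.53 and 9.10 in the low class. The ranges met at Il1rn-/- 1 of set a, the lowest library of the low class. The difference was -1.11 ± 0.20 at an adjusted p of 0.000249. Icos was at 7.47, 7.61 and 8.12 in the high class, against 7.58, 8.61 and 9.29 in the low class, with more overlap. Its difference was -0.77 ± 0.22 at an adjusted p of 0.0101. These calls held in the 6 other settings run and with each library left out, where the largest adjusted p was 0.000869 for Cd83, 0.00124 for Ctla4 and 0.0374 for Icos. None of these fits had the letter or the Y-linked call as a term, and the high class lies wholly in set b without Y-linked transcripts. In low-class libraries without Y-linked transcripts, Ctla4, Icos and Cd83 averaged 8.08, 8.18 and 7.38, against 7.42, 7.72 and 6.53 in the high class. The part of set and Y-linked call in the class differences was not tested.

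Cd200 and Btla lay on the other side. Cd200 averaged 5.00 ± 0.23 log2 CPM in the high class and 4.47 ± 0.42 in the low class (SD, n = 6 and 8), a difference of 0.51 ± 0.20 at an adjusted p of 0.0511. Btla averaged 5.57 ± 0.52 in the high class and 5.10 ± 0.34 in the low class, a difference of 0.50 ± 0.22 at an adjusted p of 0.0786. Cd200 passed at 0.0365 when reads outside ribosomal RNA set the scale and at 0.0089 without wild-type 3 of set a, and Btla passed at 0.0085 without wild-type 3 of set b. Pdcd1, Tigit and Lag3 had differences of 0.19, -0.15 and -0.27, and Havcr2 one of -1.33 with an interval of -2.99 to 0.32 that was -0.54 without wild-type 3 of set b.

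Some genes that define the T cell also differed between the classes. Of 9 tested T cell and regulatory T cell identity genes, 4 passed as higher in the high class and 1 as lower. Their median difference was 0.02. Over all genes 16.1% passed as higher and 20% as lower. Cd3e, a chain of the antigen receptor complex, was 2.46 ± 0.17 higher in the high class on the log2 scale, and Il2ra, the high-affinity IL-2 receptor chain, 0.76 ± 0.11 higher. Ikzf2, a factor of thymus-derived regulatory T cells, had a difference of -0.58 ± 0.13. Cd22 of B cells was lower in the high class, where 2 of 9 tested B cell markers passed as lower and 0 as higher. Cd8a and Cd8b1 of CD8 T cells were higher, in a list where 2 of 5 tested genes passed as higher and 0 as lower. As a whole the B cell markers summed to 25.1 to 71.3 CPM in the high class (median 36.3) and 21.2 to 84.3 CPM in the low class (median 64.4). The dendritic cell markers summed to 1.16 to 8.78 CPM in the high and 1.63 to 4.94 CPM in the low class, and those of CD8 T and NK cells to 43.0 to 95.7 CPM in the high (median 77.3) and 50.1 to 77.4 CPM in the low class (median 52.4). Those of follicular helper T cells summed to 50.3 to 115.0 CPM in the high (median 98.0) and 56.6 to 130.8 CPM in the low class (median 75.6). The genes named here were chosen after their values were seen, and their part in the differences of the 9 genes was not tested.

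**Figure D4:**
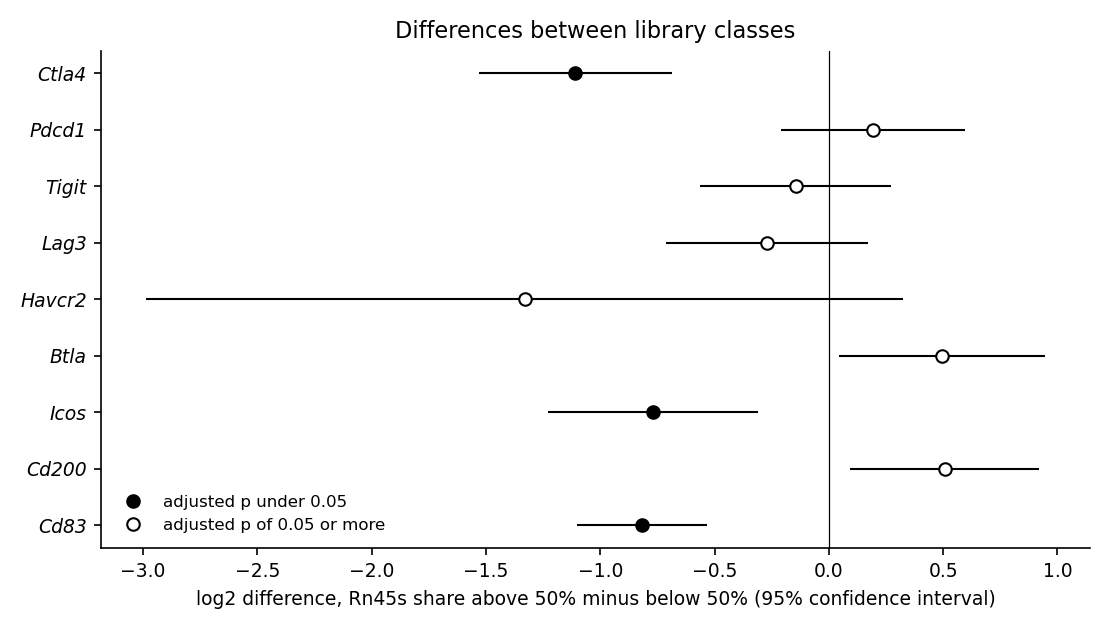
Log2 difference between libraries with an Rn45s share above and below 50% (horizontal axis, positive when higher in the high class), with 95% confidence intervals and genotype in the model. Filled points passed at an adjusted p under 0.05, which were Ctla4, Icos and Cd83, all to the left of 0.

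Within the 8 libraries of low Rn45s share, those with Y-linked transcripts were set against those without, 4 each, with genotype in the model. The letter was not a term. Among Il1rn-/- libraries, those with these transcripts were 3 and 4 of set b, and those without were all of set a. Within that genotype the Y-linked call and the set cannot be told apart. Among wild-type libraries, all of set a, only wild-type 3 lacked these transcripts. No member passed, against 0.146% of all genes (0.13% higher and 0.0162% lower). Ctla4 was at 9.07, 8.81, 9.10 and 8.70 log2 CPM where Y-linked transcripts were found, against 7.62, 8.32, 8.36 and 8.0 in the others. These did not overlap, which 4.92% of all genes share. The difference was 0.85 ± 0.21 at an unadjusted p of 0.0056, with 7.75% of all genes under 0.05, and an adjusted p of 0.436. Pdcd1 was at 5.75, 4.74, 5.74 and 5.67 in libraries that held Y-linked transcripts, against 5.96, 6.66, 6.15 and 5.76 in the others. Here too the groups did not overlap, in the opposite direction, and the difference was -0.54 ± 0.26 at an adjusted p of 0.706. The other 7 members overlapped. With both library class and the Y-linked call as covariates the genotype difference of Pdcd1 was 0.36 ± 0.17 at an unadjusted p of 0.0482 and an adjusted p of 1.00.

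The members did not vary as one block. Because the classes differ, Pearson's r between members was computed within each class, over 6 libraries of the high and 8 of the low class, for 36 pairs and 72 relations. Both values were positive in 9 pairs, both negative in 10, and opposite in 17. The libraries of a class differ in depth, which their values share. Both classes hold both genotypes, and the low class also holds both sets and libraries with and without Y-linked transcripts. No r was adjusted for these.

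Ctla4 and Icos were the 1 pair of 36 with r over 0.5 in both classes. In the high class r was 0.955 and Spearman's rho 0.83 (n = 6, exact permutation p = 0.00556 for r and 0.0583 for rho, adjusted p of 0.100 for r), and r was 0.930 without the 2 libraries farthest in Ctla4. In the low class r was 0.800 and rho 0.833 (n = 8, exact permutation p = 0.0179 for r and 0.0154 for rho, adjusted p of 0.208 for r), and 0.682 without the 2 farthest. Neither passed the adjustment. Ranked among 5223 genes by the smaller of the 2 class values, Icos was number 4 for Ctla4, and the nearest were Igfbp4 at 0.89 and Vim at 0.87.

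The relation that passed for r was Tigit with Icos in the low class, at r = 0.926 (n = 8, exact permutation test with an adjusted p of 0.0143) and rho = 0.929 with an adjusted p of 0.161. Without the 2 libraries farthest in Tigit r was 0.816. In the high class it was 0.377. Lag3 and Icos also had r = 0.926 in the low class and -0.635 in the high class. Cd200 and Cd83 had r = -0.986 in the high class and 0.215 in the low class, and neither of these 2 pairs passed, at an adjusted p of 0.080 in the stronger class by exact permutation.

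By the same measure of likeness, S100a6 was among the 2 genes nearest to Icos and Glipr1 among the 2 nearest to Lag3, and Ctla4 was number 10 for Icos. Those nearest to Pdcd1 were Rgl2 and Hectd3, and to Tigit Elf1 and Ppil1. Nearest to Cd200 were Dnajc1 and Tespa1, to Btla Ptges3 and Ate1, and to Cd83 Crtap and Tapbpl. Their smaller r values were 0.72 to 0.89, over 14 libraries in 2 classes, and are given as a description.

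**Figure D5:**
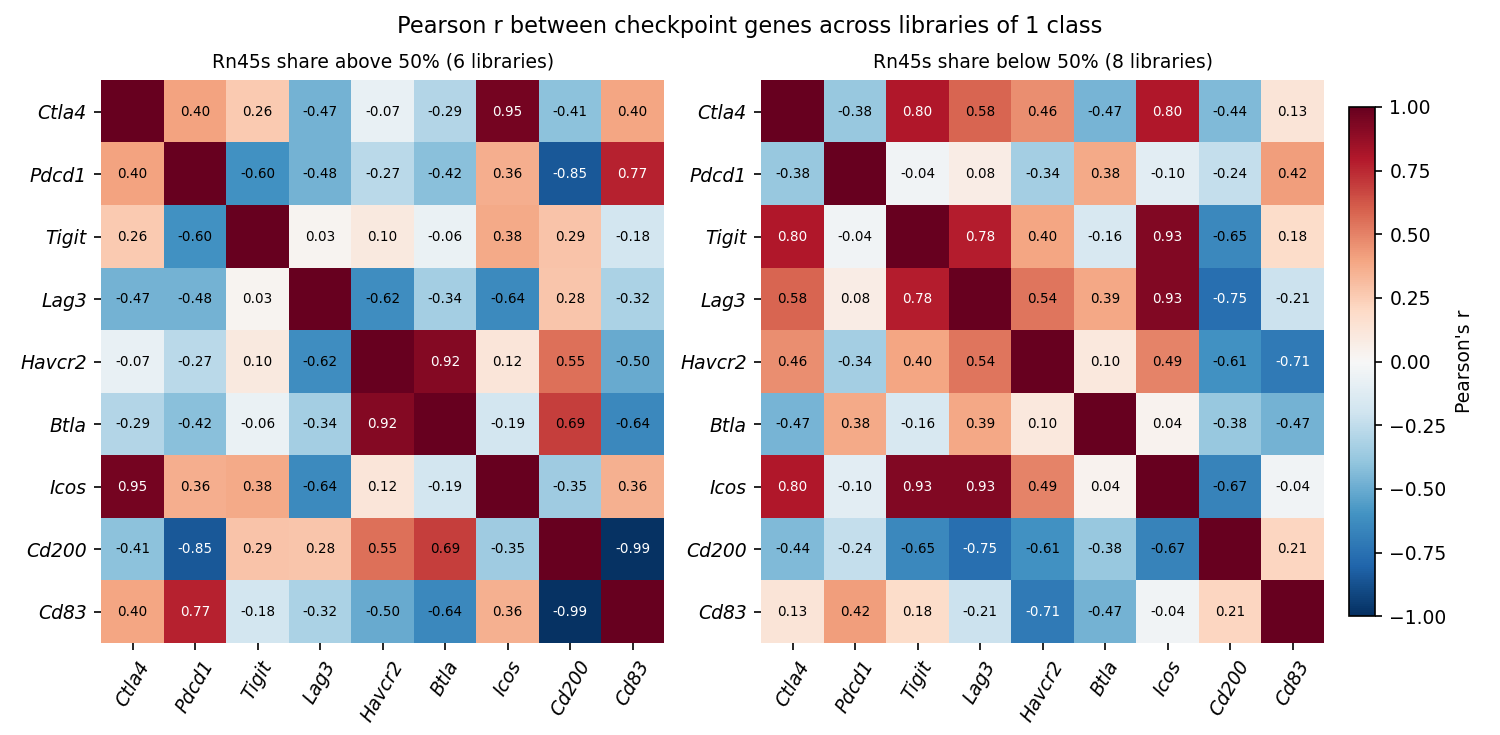
Pearson's r between each pair of checkpoint genes across the 6 libraries with a high Rn45s share (left) and the 8 with a low share (right), as colour and number. Ctla4 and Icos reach 0.95 and 0.80, while many other pairs differ in sign between the panels.

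The partners of these molecules were examined by role, with no gene of any list passing between genotypes. Of 15 tested ligands, 6 had a positive and 9 a negative difference, with a median of -0.14 against 0.04 over all genes. Cd200r1, the receptor of CD200, averaged 4.61 ± 0.54 log2 CPM in Il1rn-/- and 4.05 ± 0.64 in wild-type libraries, a difference of 0.56 ± 0.23 that was 0.32 with library class as a covariate. Hmgb1, which binds TIM-3, had a difference of -0.59 ± 0.27, and 0.03 with the covariate. Cd274, which encodes PD-L1, the ligand of PD-1, had one of 0.31 ± 0.17, and 0.23 with the covariate.

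Among 15 other checkpoint receptors 13 differences were positive, with a median of 0.15 that was 0.08 with library class as a covariate. The medians over all genes were 0.04 and 0.03. By limma 0 of the 15 had an unadjusted p under 0.05 in either fit. Cd160, which shares its ligand HVEM with BTLA, had a difference of 0.60 ± 0.34. Cd5 and Cd6, receptors that dampen antigen receptor signals, had differences of 0.21 ± 0.15 and 0.21 ± 0.18. With the covariate Cd160, Cd5 and Cd6 were at 0.52, 0.08 and 0.03. Of 19 signalling genes 12 were positive, among them the kinase gene Tbk1 at 0.53 ± 0.21 and the adaptor gene Grb2 at 0.36 ± 0.19. Bag6, whose product binds the tail of TIM-3, had a difference of -0.49 ± 0.21. The values of Tbk1, Grb2 and Bag6 with the covariate were 0.13, 0.27 and -0.20.

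Of 11 genes for the trafficking of CTLA-4 and CD83, 6 were positive and 5 negative. Ap2m1, the clathrin adaptor subunit that takes CTLA-4 from the surface, had a difference of -0.47 ± 0.28, and 0.11 with library class as a covariate. Arf1 had one of -0.22 ± 0.16 and the recycling GTPase gene Rab11a one of -0.16 ± 0.13. With the covariate Arf1 was at 0.06 and Rab11a at -0.21. Of 19 transcription factors 8 were positive and 11 negative. Irf4, Nfatc2 and Bcl6 had differences of -0.26 ± 0.17, -0.21 ± 0.20 and -0.37 ± 0.36. With the covariate they were at -0.17, 0.03 and 0.15. In a list of 7 tested genes that go with coinhibitory receptors on exhausted or suppressive T cells, the ectonucleotidase gene Nt5e had a difference of 0.35 ± 0.22, the granzyme gene Gzmb one of -0.42 ± 0.38 and Entpd1 one of 0.13 ± 0.15. With the covariate Nt5e was at -0.03, Gzmb at -0.49 and Entpd1 at 0.19.

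Genes of the same lists did pass between library classes. Of the 15 other receptors 5 were lower in the high class and 0 higher, namely Cd28, Cd5, Cd6, Lair1 and Slamf6, and Cd28, the neighbour of Ctla4 and its costimulatory counterpart, differed by -0.52 ± 0.17. Of the 19 transcription factors 4 were higher and 0 lower, namely Nfatc1, Nfatc2, Bcl6 and Foxo3. Of the ligands 4 were higher, Hmgb1, Lgals9, Tnfrsf14 and H2-Ab1, and 1 lower, Cd200r1. Among signalling genes 3 were higher, Inpp5d, Cblb and Bag6, and 6 lower. Among trafficking genes Ap2m1 and Arf1 were higher and Def6 and Trat1 lower, with Ap2m1 at a difference of 2.02 ± 0.12. These names were taken after their values were seen. All counts stand against 16.1% of genes higher and 20% lower.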

How the data were processed

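RNA was measured in 14 libraries, 7 Il1rn-/- and 7 wild type. The labels' protocols name a Qiagen RNeasy Micro kit, Smart-Seq2 and Cuffquant 2.2.1. The submitters' processing notes list Cufflinks 2.2.1, Cuffnorm, TopHat2 2.0.10 and BWA. Build, annotation, strand and final tool: not given in the sources used here. The authors deposited log2 CPM values on a common scale with a small prior count. The lowest value of -3.58, shared by all libraries, is 0 reads, and whole reads were recovered from the steps above it (100% lay within 0.001 of one). The effective library size that these steps imply was not the total of recovered reads. It was below that total in every library of high Rn45s share. In those of low share it was above the total, except in Il1rn-/- 3 of set b. How these sizes were set is not given in the sources used here.

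Tests covered the 12329 genes, all 9 members among them, that exceeded a CPM of 1 in 3 or more libraries. Genotype and letter were terms of a limma model (version 3.58.1, R 4.3.3) with an intensity trend, two-sided, with Benjamini-Hochberg adjustment at 0.05. A model of 4 groups gave the contrasts in set a, in set b and between them. A library class was set at an Rn45s share of 50%, and Y-linked transcripts were called from 20 reads. Count models were planned and not used, and limma voom on the recovered reads took their place. The fit was tested on simulated counts with genotype and letter effects, which held no effect of library class or Y-linked call. How it performs with such effects was not tested. Other work used Python 3.11.15, numpy 2.4.6, pandas 2.3.3 and matplotlib 3.10.9.

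The members and gene lists were chosen with earlier results of these data known. Beside the members the text names the 3 genes of each list with the lowest p (mean log2 CPM at least 2), fixed identity and marker genes, and the 2 genes most alike to each member with a mean of 4 or more. Some genes that this rule names are not reported here. The filter, prior count, scaling, letter term, replicate block, library classes and each single library were varied. Counting intervals were not given, since reads lack molecular identifiers.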

Additional observations from a re-analysis of the deposited data

Results flagged for a closer look

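Btla in wild-type set b was the 1 group of the 18 tested, each of 4 libraries, in which a single library stood apart from the others. Wild-type 3 of that set was at 4.61 log2 CPM (21 reads), against 5.71 to 5.82 in the other 3, and its gap to the nearest was 0.906 of the group's range. Chance flags about 1 in 20 groups. This library was also the shallowest, at 952021 reads, and its part in the value was not tested.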

How the results depend on the processing

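No member passed between genotypes, in either set or between sets under any alternative run, and 0 members passed for Y-linked transcripts. In the library class difference Ctla4, Icos and Cd83 passed under every alternative, and Cd200 or Btla passed in 9 fits, all higher in the high class. No fit of that difference had the letter or the Y-linked call as a term. Of 1143 alternative values of the members, 59 changed sign, 36 of them with a library left out. DESeq2 and edgeR were planned and not run, and limma voom on the recovered reads took their place.

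Over all genes the genotype count was 0, and was 1 in libraries with a low Rn45s share, where the letter term leaves the set a contrast, and 13 in those with a high share. In set a it was 0, 1 with set a alone, and 0 to 1 with a library left out (1 without wild-type 3 of set a). In set b it was 0, 13 among libraries with a high share, and 0 to 230 with a library left out (7 without Il1rn-/- 1, 230 without Il1rn-/- 2 and 3 without wild-type 1 of set b). The count for Y-linked transcripts was 18, 33 where 7 or more libraries had to exceed a CPM of 1, 28 with libraries centred on their median, and 7 to 18 with a library left out (7 without Il1rn-/- 3 of set a, 8 without Il1rn-/- 1 of set a or 3 or 4 of set b, 10 without wild-type 2 of set a). The cause was not tested.

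Signs of the genotype difference changed as follows, with the cause not tested. With class in place of letter, Ctla4 was at -0.11, Icos at -0.18 and Btla at 0.12. In libraries with a low share, Ctla4 was at -0.53, Havcr2 at -0.83, Icos at -0.38 and Btla at 0.29. In those with a high share, which is also set b with a high share, Cd200 was at 0.029, Btla at 0.26 and Cd83 at -0.072. Without libraries with Y-linked transcripts, Lag3 was at 0.13, Btla at 0.34 and Cd83 at -0.026. With class and Y-linked transcripts as covariates, Icos was at -0.11 and Btla at 0.065. Scaling to reads outside ribosomal RNA put Icos at -0.036, Pdcd1 in set b at -0.049, Cd200 between sets at -0.037 and Cd83 for Y-linked transcripts at -0.098. With limma voom Havcr2 was at -0.28.

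With a library left out, genotype differences ran from -0.16 to 0.093 for Btla, -0.011 to 0.36 for Ctla4, -0.29 to 0.84 for Havcr2, -0.11 to 0.20 for Icos and -0.27 to 0.020 for Lag3. In set a they ran from -0.53 to 0.080 for Cd200, -0.016 to 0.30 for Cd83, -0.57 to 0.20 for Lag3 and -0.61 to 0.10 for Tigit. In set b they ran from -0.059 to 0.14 for Pdcd1 and -0.18 to 0.011 for Lag3. Between sets they ran from -0.28 to 0.32 for Cd200, -0.29 to 0.48 for Lag3 and -0.21 to 0.50 for Tigit. For Y-linked transcripts they ran from -0.39 to 0.23 for Cd200, -0.039 to 0.22 for Cd83 and -0.27 to 0.51 for Lag3.

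A block by replicate number left the genotype counts at 0, in both sets and between them, and changed no call. Same-numbered libraries had deviations with r of -0.151 to 0.000517, and 0 of 7 numbers matched best with their own. This cannot exclude a pairing, since set b Il1rn-/- libraries fell in both classes and its wild-type libraries all in the high class.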
